A study of Mus musculus with 12 samples.

Results

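The dual-specificity MAP kinase phosphatases were followed in mouse hearts with and without ischemia-reperfusion (IR). The family was represented by 10 genes of the 52858 listed in the deposited files, chosen by gene symbol: Dusp1, Dusp2, Dusp4, Dusp5, Dusp6, Dusp7, Dusp8, Dusp10, Dusp14 and Dusp16. All 10 were found once and all 10 passed the filter on low values. MAP kinases (the ERK, JNK and p38 enzymes) are active when a threonine and a neighbouring tyrosine in their activation loop carry phosphate. These phosphatases remove both phosphates and so switch the kinases off. Several of them are themselves transcribed in response to MAP kinase activity, which makes them part of a negative feedback loop, and in the heart they are known as brakes on stress and growth signalling.

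RNA sequencing covered 12 hearts in 4 groups of 3, from mice aged 3 to 5 months. The 6 hearts of the C57-non-IR and C57-IR groups came from C57BL/6J mice, and those of the Slit2-non-IR and Slit2-IR groups from Slit2-Tg mice, which carry a human Slit2 cDNA driven by the CMV promoter, a promoter not restricted to one cell type. IR hearts were perfused ex vivo in a Langendorff system for 20 min, deprived of flow for 20 min and reperfused for 40 min, whereas non-IR hearts were perfused without a break for 80 min. Excision and ex vivo perfusion were therefore shared by all 4 groups, and every level below is that of a heart after perfusion. Levels are FPKM, fragment counts scaled to gene length and, in the deposited values, by 1 median-of-ratios factor per library, and differences were tested on log2(FPKM + 1), which understates the change of genes at low levels.

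Each library held between 16601154 and 24841291 reads on genes. The 6 cardiomyocyte markers summed to between 12111 and 18519 FPKM in every heart, while the 5 neutrophil markers summed to at most 1.39 FPKM and the 5 lymphocyte markers to at most 0.338. None of the 12 marker lists had a tested gene past the threshold between IR and non-IR hearts. Low values left 0 of the 5 lymphocyte, 1 of the 5 neutrophil, 2 of the 4 lung and 2 of the 4 skeletal muscle markers tested. For lymphocytes no call was therefore possible. The 5 atrial markers summed to 85.3 to 227 FPKM in IR and 19.9 to 87 in non-IR hearts of C57BL/6J mice, and to 67.1 to 1650 and 39.9 to 106 in those of Slit2-Tg mice, ranges that overlap (median log2 difference of the 4 tested over both genotypes 1.86). The high values were those of Slit2-IR replicate 1 (1650) and C57-IR replicate 2 (227). Red cell markers summed to 4.53 to 49 FPKM in non-IR and 1.48 to 12.9 in IR hearts (median log2 difference -0.85). The part of either in the results was not tested, and counts are also given without the 2 hearts high in atrial markers, an alternative added after seeing the data. The row for mouse Slit2 held 0.195 ± 0.0233 FPKM in C57-non-IR and 0.243 ± 0.0348 in C57-IR hearts (SD, 3 hearts each). It held 0.178 ± 0.00799 in Slit2-non-IR and 0.350 ± 0.402 in Slit2-IR hearts. Whether reads of the human transgene count on that row was not tested, so it does not check the genotype labels. In tissue RNA, fewer cells of a type and less RNA per cell cannot be told apart.

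The upstream sequences of 4 members are shown first because they differ in the response elements that stand before the start of transcription. RefSeq windows of 250 bases upstream were found for 9 of the 10 members (build GRCm38.p6), all but Dusp4. Capitals mark matches to the cyclic AMP response element (CRE, TGACGTCA), the CArG box bound by serum response factor, and the EGR site (GCGNGGGCG), searched on both strands, and bases that GENCODE M21 annotates as exon are left out.
Dusp5 (chr19:53528895-53529108, + strand): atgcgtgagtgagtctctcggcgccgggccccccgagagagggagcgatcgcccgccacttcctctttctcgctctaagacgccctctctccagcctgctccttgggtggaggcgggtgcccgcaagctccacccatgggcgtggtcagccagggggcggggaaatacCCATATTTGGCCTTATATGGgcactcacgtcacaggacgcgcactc
Dusp8 (chr7:142095285-142095534, - strand): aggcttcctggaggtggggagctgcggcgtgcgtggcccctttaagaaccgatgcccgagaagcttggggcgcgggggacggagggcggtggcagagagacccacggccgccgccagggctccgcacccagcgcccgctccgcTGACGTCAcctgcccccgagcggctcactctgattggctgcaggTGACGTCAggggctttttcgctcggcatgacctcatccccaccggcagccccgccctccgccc
Dusp1 (chr17:26508520-26508722, - strand): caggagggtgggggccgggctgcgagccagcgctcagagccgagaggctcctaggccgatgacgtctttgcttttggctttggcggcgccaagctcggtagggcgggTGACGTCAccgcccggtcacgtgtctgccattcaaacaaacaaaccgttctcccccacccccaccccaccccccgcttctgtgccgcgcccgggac
Dusp2 (chr2:127335909-127336158, + strand): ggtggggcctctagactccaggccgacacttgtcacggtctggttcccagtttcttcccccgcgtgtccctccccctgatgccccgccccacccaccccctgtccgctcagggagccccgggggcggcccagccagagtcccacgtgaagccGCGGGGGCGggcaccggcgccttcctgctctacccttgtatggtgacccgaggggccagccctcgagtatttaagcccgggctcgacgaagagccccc

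The Dusp5 window held 2 CArG boxes side by side, CCATATTTGG from 82 to 73 and CCTTATATGG from 72 to 63 bases before the RefSeq start. A CArG box was present in 1.47% of all 32851 upstream windows of this length, and 2 or more in 6 of them (0.0183%). The Dusp8 window held 2 CREs, at 107 to 100 and 63 to 56 bases before the start, and the Dusp1 window held 1, at 143 to 136. A CRE was present in 1.55% of all windows, and 2 or more in 10 of them (0.0304%). The Dusp8 window lies before the start of its main GENCODE transcript and inside the first intron of a longer one. The printed Dusp1 window lies before the gene as deposited (chr17:26505590-26508519) but inside the longer gene of GENCODE M21 (chr17:26505590-26562128).

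EGR sites were found upstream of Dusp2 and Dusp16, against 4.70% of all windows. Each of them shares bases with a match to the SP1 letters GGGCGG on the same strand. The SP1 letters occurred in 7 of the 9 members' windows and in 32.7% of all windows. The AP-1 letters TGANTCA and the TATA letters TATAAA matched in 0 of the 9 windows, against 6.75% and 12.4% of all windows. These motifs were looked for with the expression values known. A match is a stretch of letters and was not tested for binding here.

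Most members have few exons, but they are not all short genes. Their genomic spans ran from 2218 bases (Dusp2) to 62335 (Dusp10) and 77158 (Dusp16), where the median of tested protein-coding genes was 24673. In GENCODE M21, 8 of the 10 had 4 or fewer exons in the transcript with the longest coding sequence (Dusp8 and Dusp16 had 7), against 21.2% of 13283 tested protein-coding genes, whose median was 9. An antisense gene overlaps 3 of them, and since no source used here says whether strand was used in counting, reads of such pairs cannot be told apart. For Dusp10 the partner, 1700056E22Rik, stood at 0.273 to 0.796 FPKM in non-IR and 0.620 to 1.17 in IR hearts. The partners of Dusp8 (Gm32786) and Dusp16 (Gm36328) reached at most 0.154 and 0.446 FPKM.

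Members differed widely in level. Dusp1 was by far the most abundant, at 213 ± 46.8 FPKM in the 6 non-IR hearts (SD, n = 6), and made up 75.7 to 81.2% of the FPKM summed over the 10 genes in each. Dusp6 (19.1 ± 5.57) and Dusp7 (17.8 ± 2.23) followed, then came Dusp8 (9.82 ± 1.52), Dusp5 (3.73 ± 0.539) and Dusp16 (2.86 ± 0.259). Dusp10 (1.61 ± 0.373), Dusp4 (1.12 ± 0.149), Dusp2 (0.551 ± 0.171) and Dusp14 (0.256 ± 0.0533) were lowest. Among neighbours in this order, the ranges over these hearts overlapped for Dusp6 and Dusp7, Dusp5 and Dusp16, Dusp10 and Dusp4, and Dusp2 and Dusp14, and the other neighbours were apart. The reads behind these values ranged from 7607 to 17366 per heart for Dusp1 down to 10 to 173 for Dusp2 and 7 to 31 for Dusp14, so the last gene is the least precisely measured.

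**Figure D1:**
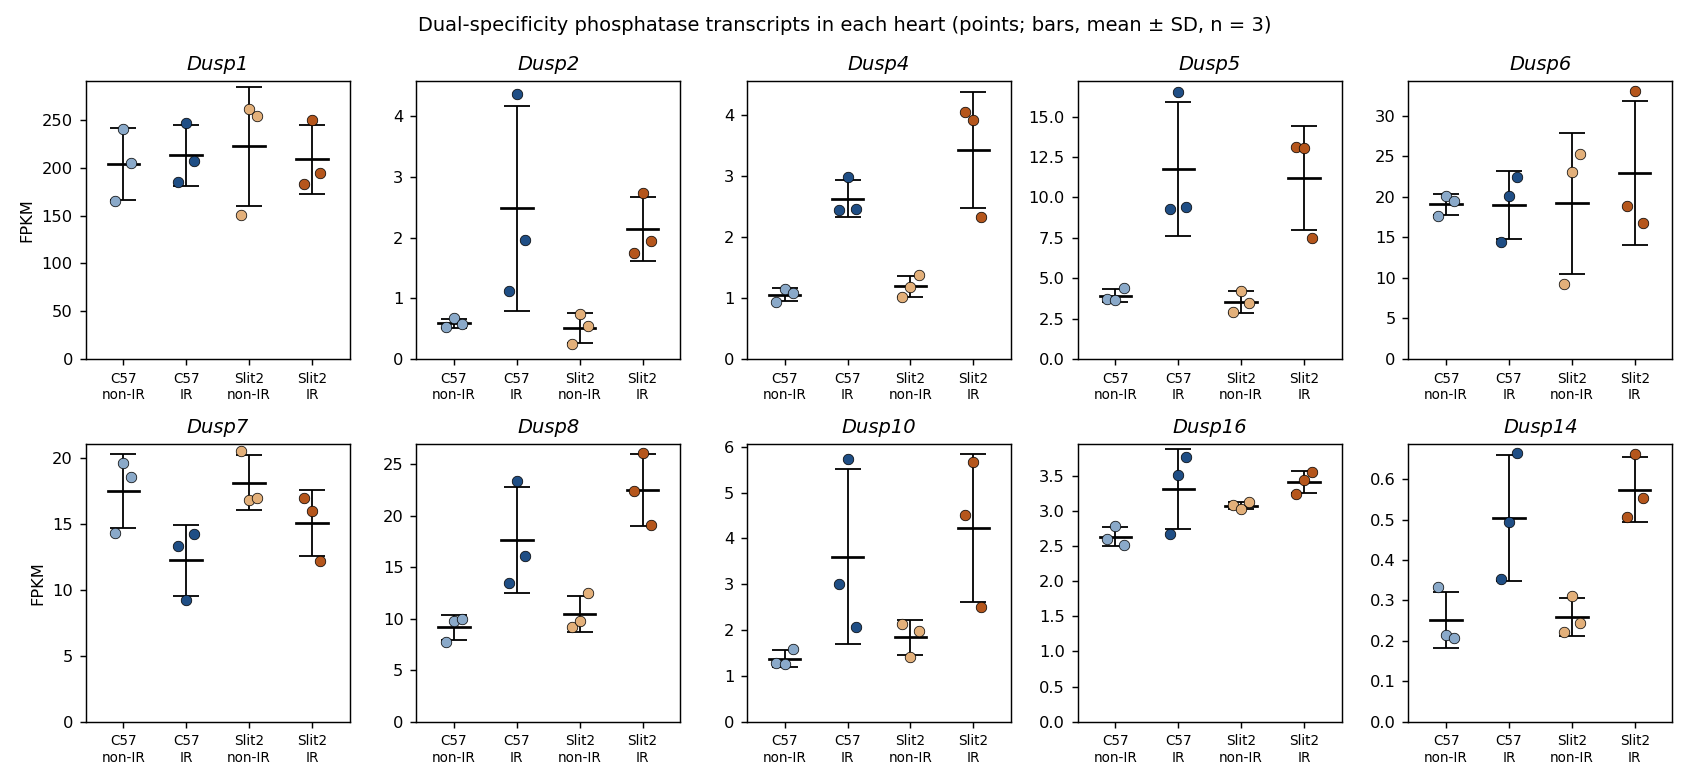
FPKM (vertical axis, from 0, a separate scale for each gene) of the 10 phosphatase genes in each heart, with the C57BL/6J groups to the left of the Slit2-Tg groups and non-IR before IR; points are hearts and bars are the mean ± SD of 3. Dusp2, Dusp4, Dusp5, Dusp8 and Dusp14 stood higher in all 6 IR hearts than in all 6 non-IR hearts, Dusp14 by a narrow margin. Dusp1 and Dusp6 overlapped in every group.

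To ask how IR moved the family, IR and non-IR hearts were compared over both genotypes with limma, adjusting p-values over all 15240 tested genes (Benjamini-Hochberg). Of the 10 members, 6 rose (Dusp2, Dusp4, Dusp5, Dusp8, Dusp10 and Dusp14) and 0 fell, where 3.49% of all tested genes passed the threshold and 2.34% passed it as higher after IR. The members were chosen with earlier results of these data known, so the share that rose is descriptive. The median log2 difference was 0.57 over all 10 members and 0.92 over these 6, against 0.00363 over all genes. In 5 of the 6 (all but Dusp10) every IR heart was above every non-IR heart, which held for 2.23% of tested genes. For Dusp14 the margin was narrow, with 12 reads in the lowest IR heart and 11 in the highest non-IR heart. For each of the 6, the exact permutation test with IR labels exchanged within genotype gave p = 0.005 (two-sided), the smallest its 400 relabelings can give. In all 6, IR and non-IR hearts were apart within each genotype, which fixes that value. The permutation test therefore adds nothing to the separation of the groups. The 6 that rose include genes of each class except the cytoplasmic ERK phosphatases.

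Among the nuclear phosphatases, which are known as immediate early genes, Dusp5 had the largest log2 difference of the 10. Dusp5 (ENSMUSG00000034765, chr19:53529109-53542431, + strand) is selective for ERK. It stood at 3.70, 3.67 and 4.42 FPKM in the C57-non-IR hearts (replicates 1 to 3) and at 9.31, 16.5 and 9.41 in the C57-IR hearts. In Slit2-Tg hearts it stood at 2.90, 4.21 and 3.47 without IR and at 13.1, 13.1 and 7.49 after IR. The lowest IR heart was thus well above the highest non-IR heart, and the mean was 3.08-fold higher. The log2 difference was 1.37 ± 0.17 (SE, limma adjusted p = 0.00199).

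Dusp2 (ENSMUSG00000027368, chr2:127336159-127338376, + strand), best known from activated lymphocytes, had the largest ratio of means, 4.20-fold, from a low base. Its levels were 0.528, 0.671 and 0.577 FPKM in C57-non-IR and 1.12, 4.38 and 1.95 in C57-IR hearts, and 0.241, 0.736 and 0.552 in Slit2-non-IR and 1.75, 2.74 and 1.95 in Slit2-IR hearts. The groups did not overlap, but the C57-IR hearts spread widely, with an SD of 1.69 FPKM around a mean of 2.48. The log2 difference was 1.04 ± 0.19 (limma adjusted p = 0.0130). The lymphocyte markers, at or near 0 throughout, ranged from 0.0547 to 0.338 FPKM summed in non-IR hearts and 0.0799 to 0.167 in IR hearts. None of them passed the filter, and which cells the Dusp2 reads came from was not tested.

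Dusp4 (ENSMUSG00000031530, chr8:34807297-34819894, + strand) acts on ERK, JNK and p38 in the nucleus. It stood at 0.943, 1.15 and 1.08 FPKM in C57-non-IR hearts and at 2.45, 2.98 and 2.45 in C57-IR hearts. The Slit2-non-IR hearts had 1.02, 1.19 and 1.37, and the Slit2-IR hearts 4.05, 3.91 and 2.33. No IR heart reached down to the non-IR range, and the mean was 2.69-fold higher. With a log2 difference of 0.90 ± 0.10, it had the smallest p-value of the 10 members (limma adjusted p = 0.00173).

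Dusp1 (ENSMUSG00000024190, chr17:26505590-26508519, - strand), which prefers p38 and JNK, belongs to the same nuclear class and was not called. Its levels were 166, 241 and 204 FPKM in C57-non-IR, 185, 247 and 207 in C57-IR, 151, 261 and 254 in Slit2-non-IR and 183, 250 and 194 in Slit2-IR hearts. The 4 groups overlapped throughout, and in each of them replicate 1 was the lowest heart and replicate 2 the highest. The log2 difference was 0.01, with a 95% interval from -0.34 to 0.35 (limma adjusted p = 0.992, exact permutation p = 0.98), so a change of up to about that size could not be seen. The share of Dusp1 in the family's summed FPKM was 68.1 to 75.4% in IR hearts, below each non-IR value, and the sum of the other 9 genes went from a median of 58.8 FPKM to 79.2.

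The cytoplasmic ERK phosphatases were not called. Dusp6, itself a known target of ERK signalling, stood at 17.6, 20.1 and 19.4 FPKM in C57-non-IR and 14.4, 20.1 and 22.5 in C57-IR hearts, and at 9.20, 23.1 and 25.3 in Slit2-non-IR and 18.9, 33.1 and 16.8 in Slit2-IR hearts. These groups overlapped, and the log2 difference of 0.14 had a 95% interval from -0.39 to 0.67 (limma adjusted p = 0.867). Dusp7 had 14.3, 19.5 and 18.6 FPKM in C57-non-IR, 13.3, 9.18 and 14.2 in C57-IR, 20.5, 16.8 and 17 in Slit2-non-IR and 17, 15.9 and 12.2 in Slit2-IR hearts. All 3 C57-IR hearts were below the C57-non-IR hearts, and the Slit2-Tg groups overlapped. The log2 difference of -0.38 ± 0.13 had a single-gene exact permutation p of 0.015, and the limma value adjusted over all genes was 0.151.

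Of the JNK and p38 phosphatases, Dusp8 and Dusp10 rose. Dusp8 (ENSMUSG00000037887, chr7:142079490-142095843, - strand), known from brain, heart and skeletal muscle, stood at 7.78, 9.78 and 9.95 FPKM in C57-non-IR and 13.5, 23.4 and 16.1 in C57-IR hearts. In Slit2-Tg hearts it stood at 9.18, 9.76 and 12.5 without IR and at 22.4, 26.1 and 19.1 after IR. IR and non-IR hearts did not overlap, and the mean was 2.05-fold higher, with a log2 difference of 0.94 ± 0.14 (limma adjusted p = 0.00421). The order within the family changed: Dusp8 was above Dusp7 in 0 of 6 non-IR and 6 of 6 IR hearts. The lowest ratio of Dusp8 to Dusp7 in IR hearts was 1.02. The mean of Dusp7, which was not called, was itself 0.767 times its non-IR mean.

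Dusp10 (ENSMUSG00000039384, chr1:184013302-184075636, + strand) was at 1.27, 1.26 and 1.60 FPKM in C57-non-IR and 3.01, 5.73 and 2.06 in C57-IR hearts, and at 2.14, 1.41 and 1.99 in Slit2-non-IR and 4.52, 5.67 and 2.49 in Slit2-IR hearts. Within each genotype the groups were apart, but C57-IR replicate 3 lay under Slit2-non-IR replicate 1. The log2 difference was 0.86 ± 0.20 (limma adjusted p = 0.0415). This call was the least firm of the 6: without any one of 9 libraries (C57-IR replicate 2, Slit2-IR replicates 1 and 2 and all 6 non-IR hearts) the adjusted p was 0.0640 to 0.102, and without the filter on low values it was 0.106. The antisense partner 1700056E22Rik spanned a higher range in IR hearts, as given above, and its part in the value was not tested.

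Dusp16 kept within a narrow range. It had 2.60, 2.79 and 2.52 FPKM in C57-non-IR, 2.67, 3.51 and 3.77 in C57-IR, 3.08, 3.02 and 3.12 in Slit2-non-IR and 3.24, 3.45 and 3.55 in Slit2-IR hearts. The Slit2-Tg groups were apart by a small margin and the C57BL/6J groups overlapped. Its log2 difference of 0.18 ± 0.07 did not pass over all genes (limma adjusted p = 0.248), with a single-gene exact permutation p of 0.015. Dusp10 was above Dusp16 in 0 of 6 non-IR and 4 of 6 IR hearts.

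Dusp14 (ENSMUSG00000018648, chr11:84048041-84069261, - strand) is a small atypical member without the MAP kinase binding domain. It was at 0.332, 0.214 and 0.208 FPKM in C57-non-IR and 0.354, 0.495 and 0.663 in C57-IR hearts, and at 0.223, 0.312 and 0.244 in Slit2-non-IR and 0.507, 0.662 and 0.554 in Slit2-IR hearts. C57-IR replicate 1 (12 reads) nearly touched C57-non-IR replicate 1 (11 reads) and lay close above Slit2-non-IR replicate 2 (14 reads). Its place above the non-IR hearts thus rests on very few reads. The other IR hearts were well above every non-IR heart. The mean was 2.11-fold higher, and the log2 difference, compressed at this low level, was 0.29 ± 0.05 (limma adjusted p = 0.0146). The adjusted p was 0.0609 without the 2 hearts high in atrial markers.

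The 6 genes that rose did not rise equally in every heart. C57-IR replicate 2 had the highest value of its group for 5 of the 6 and C57-IR replicate 1 the lowest for 5, while Slit2-IR replicate 2 was highest for 4 and Slit2-IR replicate 3 lowest for 4. Across the 10 members, 8 had a larger within-group SD on the log2 scale in IR than in non-IR hearts. Examples were 0.51 against 0.18 for Dusp2 and 0.53 against 0.16 for Dusp10. Dusp1 (0.23 against 0.37) and Dusp6 (0.42 against 0.54) went the other way. This scale, log2(FPKM + 1), narrows the spread of low values, such as 0.241 to 0.736 FPKM for Dusp2 in non-IR hearts. The share over all tested genes is not given, so the count of 8 is descriptive. C57-IR replicate 2 and Slit2-IR replicate 1 are also the hearts high in atrial markers. Slit2-IR replicate 1 was the highest of its group for 2 of the 6 genes and the lowest for 2. Leaving out either heart alone kept 5 of the 6 calls, losing Dusp10. Leaving out both kept 4, Dusp2, Dusp4, Dusp5 and Dusp8, with log2 differences of 0.90, 0.82, 1.18 and 0.84, while 237 of all genes passed in place of 532.

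**Figure D2:**
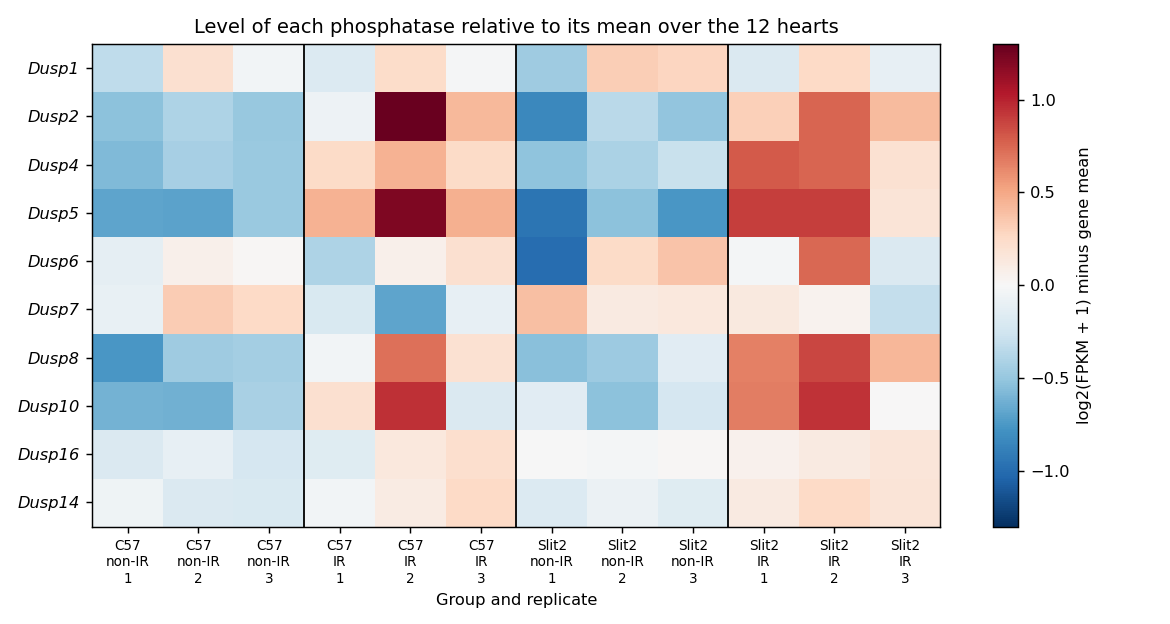
Level of each phosphatase gene (rows) in each of the 12 hearts (columns, by group and replicate), as log2(FPKM + 1) minus the gene's mean over all hearts; red is above and blue below the mean. The rows of Dusp2, Dusp4, Dusp5, Dusp8 and Dusp10 are blue in the non-IR hearts and mostly red after IR (below the mean were Dusp2 and Dusp8 in C57-IR replicate 1 and Dusp10 in C57-IR replicate 3, and Dusp10 in Slit2-IR replicate 3 was close to it), and the rows of Dusp1 and Dusp6 hold both colours in both conditions.

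Within C57BL/6J hearts alone, 2 of the 10 members passed the threshold (Dusp4 and Dusp5), against 0.459% of all tested genes, and 8 had an unadjusted p under 0.05, against 8.96% of all genes. The log2 differences were 0.82 ± 0.15 for Dusp4 (limma adjusted p = 0.0469) and 1.33 ± 0.24 for Dusp5 (limma adjusted p = 0.0463). In 6 members (the same genes that rose over both genotypes) all 3 C57-IR hearts were above all 3 C57-non-IR hearts, which held for 6.75% of tested genes. These 2 calls lay close to the threshold: the count fell to 0 without C57-IR replicate 2 or 3, Slit2-IR replicate 1 or any non-IR heart, and was 4 without C57-IR replicate 1. It was 0 without the 2 hearts high in atrial markers. A separate fit of the 6 hearts, the reads tested with limma-voom and the fit without the filter also gave 0.

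Within Slit2-Tg hearts, 3 of the 10 passed (Dusp4, Dusp5 and Dusp8), against 0.525% of all tested genes, and 6 had an unadjusted p under 0.05, against 11.2% of all genes. The log2 differences were 0.99 ± 0.15 for Dusp4 (limma adjusted p = 0.0236), 1.40 ± 0.24 for Dusp5 (0.0379) and 1.04 ± 0.19 for Dusp8 (0.0457). In 7 members, the 6 that rose over both genotypes and Dusp16, all 3 Slit2-IR hearts were above all 3 Slit2-non-IR hearts, against 8.65% of tested genes. Hearts with the same replicate number deviated together in this comparison, and with the number as a block 4 members passed, Dusp2 with an adjusted p of 0.0351, and 202 genes in all in place of 80. The count of 3 fell to 0 without Slit2-IR replicate 1 or 2, any Slit2-non-IR heart or C57-non-IR replicate 3, and to 1 without C57-non-IR replicate 1 or 2 or C57-IR replicate 3. It was also 0 without the filter and in a fit of the 6 hearts alone, and 2 without the 2 hearts high in atrial markers.

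**Figure D3:**
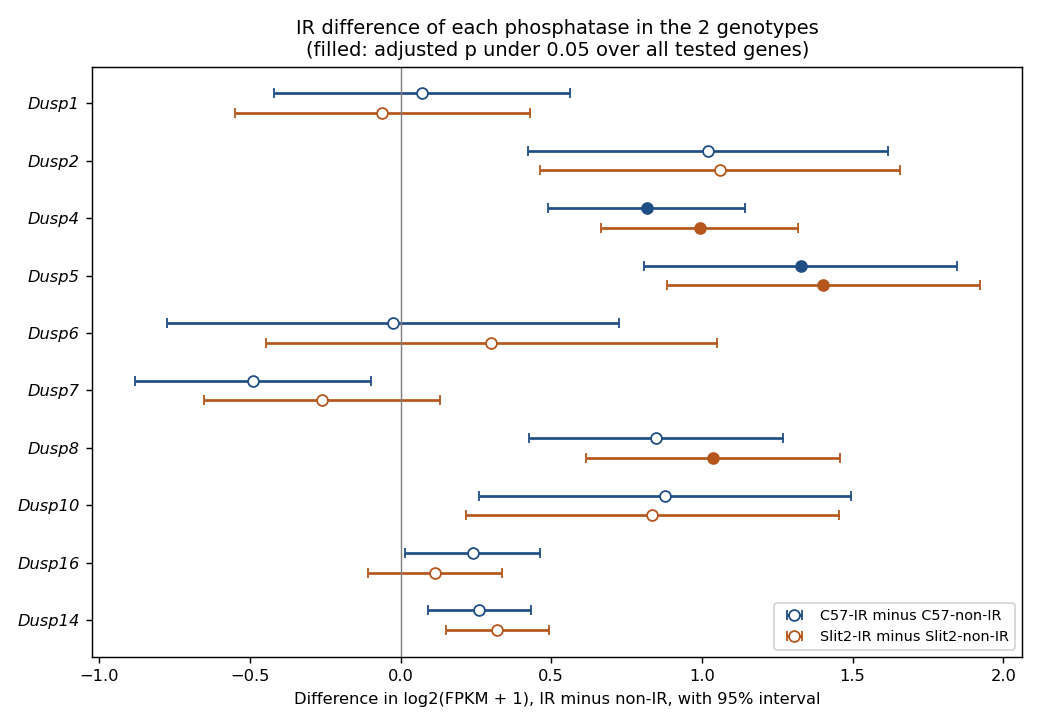
Difference in log2(FPKM + 1) between IR and non-IR hearts (horizontal axis, with the 95% interval) for each phosphatase gene, in C57BL/6J (blue) and Slit2-Tg hearts (orange); filled points passed an adjusted p of 0.05 over all tested genes. The estimates of the 2 genotypes differ by at most 0.33 (Dusp6) and run from 1.33 and 1.40 for Dusp5 to -0.49 and -0.26 for Dusp7, with intervals that overlap for every gene.

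These 2 comparisons use different hearts. Dusp2 differed by 1.02 in C57BL/6J and 1.06 in Slit2-Tg hearts, Dusp8 by 0.85 and 1.04, Dusp10 by 0.88 and 0.84 and Dusp14 by 0.26 and 0.32 on the log2 scale. Whether the IR response depended on Slit2 was tested as an interaction. It passed for 0 of the 10 members (limma, 0 also at an unadjusted p under 0.05), where 0.0% of all tested genes passed and 1.86% had an unadjusted p under 0.05, and the smallest unadjusted p of the 10 in that fit was 0.381. The intervals were wide: the difference in response was 0.08 for Dusp5 with a 95% interval from -0.66 to 0.81, and 0.18 for Dusp4 with one from -0.28 to 0.64. Differences between the genotypes of that size could not be detected with 3 hearts a group.

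Nor was a level of any member called between genotypes. Slit2-non-IR against C57-non-IR hearts gave 0 of 10 in limma (0.0394% of all genes) and Slit2-IR against C57-IR hearts gave 0 of 10 (0.0459%), with 0 at an unadjusted p under 0.05 in both (3.19% and 3.16% of all genes), and 0 under each alternative of scaling, pseudocount, filter, pairing, reads or libraries that was run. After IR, Dusp8 differed most, by 0.36 with a 95% interval from -0.06 to 0.78, followed by Dusp7 with 0.28 (-0.11 to 0.68) and Dusp4 with 0.27 (-0.06 to 0.59). Between Slit2-IR and C57-IR hearts 0 of 10 members were apart, against 6.47% of tested genes. For Slit2-non-IR against C57-non-IR hearts 1 of 10 was apart, against 9.2% of tested genes, a share near the background. It was Dusp16, higher in the Slit2-non-IR hearts by 0.17 (-0.06 to 0.39).

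The kinases that these phosphatases act on, and the kinases above them, gave 1 call between them. Of 9 tested MAP kinases 0 passed between IR and non-IR hearts over both genotypes (median log2 difference 0.05), and of 7 MAP2 kinases 0 passed (0.01). Of 17 RAF and MAP3 kinases 1 rose and 0 fell: Map3k8, an upstream activator of ERK in inflammatory signalling, went from 0.492 to 1.35 FPKM in non-IR hearts to 2.15 to 4.51 in IR hearts (log2 difference 0.98 ± 0.16, limma adjusted p = 0.00665). Of 10 kinases activated by MAP kinases 0 passed (-0.03). At an unadjusted p under 0.05 there were 0, 1, 2 and 2 in these lists, against 15.9% of all tested genes.

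Genes known for transcription downstream of MAP kinases were read as a list of 22. The list was chosen with earlier results of these data known, so its share of calls is descriptive and no independent test. Of these, 11 rose and 0 fell (3.49% of all genes passed), with a median log2 difference of 1.13. Atf3, a stress-induced transcription factor, went from 45.9 to 78.4 FPKM in non-IR hearts to 242 to 656 in IR hearts (log2 difference 2.55 ± 0.26, limma adjusted p = 0.000844). Myc rose by 2.48 ± 0.30, the small MAF factor Maff by 2.26 ± 0.32 and the AP-1 subunit Fosl2 by 2.08 ± 0.19. Phlda1 rose by 1.69 ± 0.17 and Jun by 1.10 ± 0.18, the latter from 146 to 233 FPKM up to 306 to 583. These 6 were kept in every alternative run. The ETS factors Elk1, Elk3, Elk4, Etv1, Etv4 and Etv5 in the same list had log2 differences between -0.08 and 0.18 and did not pass.

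The genes listed as feedback inhibitors above ERK were divided. Of 9 tested, 2 rose: Trib1, a pseudokinase that binds MAP2 kinases, by 1.26 ± 0.24 (limma adjusted p = 0.0153), and the receptor signalling inhibitor Spry2 by 0.55 ± 0.11 (0.0213). Trib1 is counted by its place in the list, and whether it restrains ERK was not tested. Il17rd, which restrains fibroblast growth factor signalling, fell by 0.28 ± 0.06 (0.0365). The call for Trib1 was lost without the filter (0.0505), those for Spry2 and Il17rd also without 6 and 10 single libraries, and all 3 without the 2 hearts high in atrial markers (0.0776, 0.110 and 0.202).

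Other phosphatases gave no call. Of 13 other dual-specificity phosphatases tested, 0 passed in limma (3 at an unadjusted p under 0.05), where 3.49% of all genes passed (15.9% unadjusted), and their difference from the 10 members was not tested. Their median log2 difference was -0.03, with a range from -0.41 to 0.74. Dusp9, the remaining MAP kinase phosphatase of the cytoplasmic class, had at most 1 read in a heart and was not tested. Of 7 other phosphatases that act on MAP kinases 0 passed (1 at an unadjusted p under 0.05), with a median of 0.11.

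**Figure D4:**
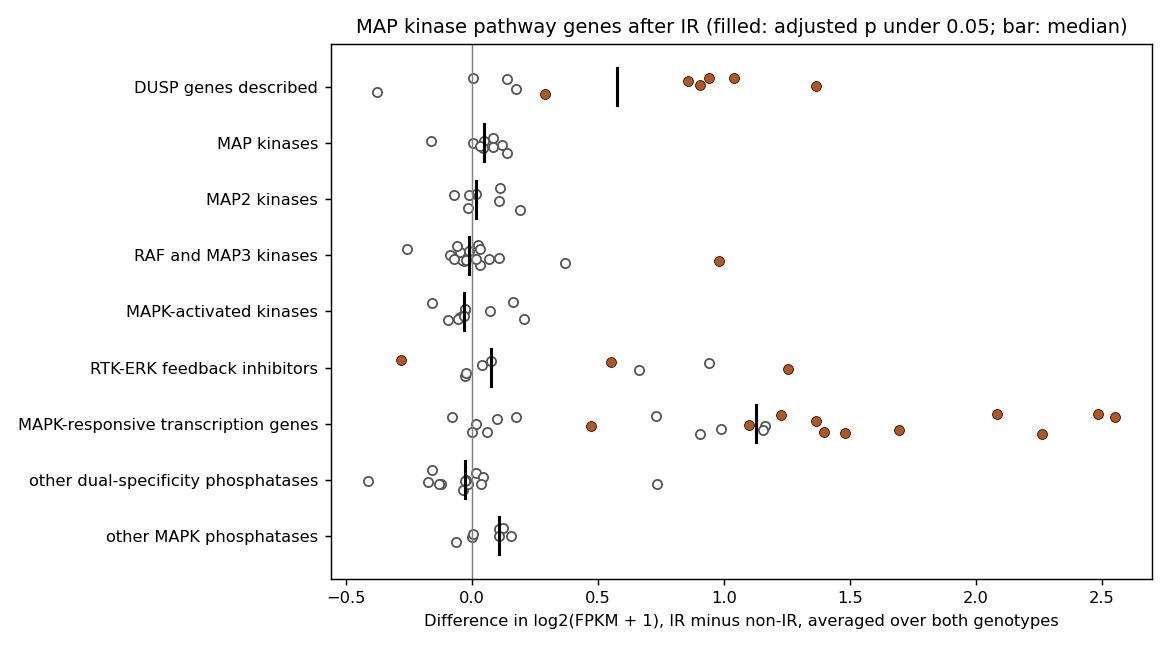
Difference in log2(FPKM + 1) between IR and non-IR hearts over both genotypes (horizontal axis) for each tested gene of the phosphatase family described and of 8 lists of MAP kinase pathway genes (rows, points spread vertically for legibility); filled points passed an adjusted p of 0.05 and bars are list medians. The family (median 0.57) and the MAP kinase responsive transcription genes (1.13) lie to the right, and the kinase lists lie around 0.

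Each gene that rose was set beside all 13307 tested protein-coding genes outside the family, by the root mean square difference of their centred log2 values over the 12 hearts. Closest to Dusp5 were the circadian repressor Bhlhe40 (0.18), Gcc1 (0.18) and Sbno2 (0.19), where the median gene was 0.74 away. Closest to Dusp4 were the cochaperone Dnaja4 (0.11), Cfap43 (0.12) and Pmaip1 (0.16). Cfap43 (0.13) and Pmaip1 (0.17), the latter a p53-inducible apoptosis gene, were also closest to Dusp8, followed by Zfand2a (0.18), a heat- and arsenite-inducible gene. Dusp4 and Dusp8 differed from each other by 0.16.

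Closest to Dusp2 were the initiation factor Eif1a (0.12), the inflammatory caspase Casp4 (0.12) and Gprc5a (0.13). For Dusp10 they were Zbtb10 (0.18), the amino acid transporter Slc38a2 (0.20) and the muscle gene Klhl40 (0.20). For Dusp14, whose values move over a short range, they were Txndc11 (0.07), Tmem33 (0.08) and Golt1b (0.08). The points compared are the same 12 libraries for every gene, so these distances describe likeness of pattern in them and carry no test.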

How the data were processed

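RNA sequencing of 12 mouse hearts in 4 groups of 3 was analysed. Genotype is given by the labels, and the letters of the sample titles were matched to the IR and non-IR groups of the methods. The authors deposited FPKM values per gene, listed with Ensembl identifiers and positions on GRCm38, from NEBNext libraries read in pairs on an Illumina HiSeq; the submitters' processing notes name HISAT2 and mm10. The counting tool, annotation release and use of strand are not given in the sources used here. Multiplied by gene length, 100% of values were whole numbers of reads (within 0.01) once divided by 1 constant per library, and these constants matched median-of-ratios size factors (coefficient of variation 3.55e-11), so reads were recovered. Per-library columns left unused numbered 0.

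Depth ranged from 16601154 to 24841291 reads. limma 3.58.1 in R 4.3.3 with a variance trend was fitted to log2(FPKM + 1) of 15240 genes (the equivalent of 10 reads in at least 3 libraries and 15 in total), with 4 group means. P-values were adjusted over these genes by the Benjamini-Hochberg method and called under 0.05. Single members were also compared with a two-sided exact permutation test, labels exchanged within genotype. In a test on simulated data for C57-IR against C57-non-IR, with 200 of 15338 genes changed 4-fold, 200 were recovered with 12 false calls. Its counts were independent between libraries with a fixed dispersion, and genes with few reads were not among those changed. It therefore gives no measure of the power for smaller changes or for members with few reads.

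Alternatives were a pseudocount of 0.1, no filter, TMM scaling, the replicate number as a block, a fit of the 2 groups compared, limma-voom on recovered reads and leaving out each library. Leaving out C57-IR replicate 2 and Slit2-IR replicate 1 together was added after the data were seen. Same-numbered libraries deviated together in all 3 pairs for Slit2-IR against Slit2-non-IR (correlations 0.143 to 0.295) and against C57-IR (0.154 to 0.362). Correlations were also positive for C57-IR against C57-non-IR (0.0833 to 0.295) and Slit2-non-IR against C57-non-IR (0.0378 to 0.324). The pairing rests on these correlations alone. By chi-square per gene, replicate 1 differed more from replicates 2 and 3 than these did from each other in every group. Named genes are the 10 members, up to 6 called genes of smallest p per pathway list, Dusp9, and the 3 tested protein-coding genes nearest to each member that rose. The members and lists were chosen with earlier results of these data known. Hearts are described as independent samples by the submitters. Sequences are RefSeq windows (GRCm38.p6), and exons are from GENCODE M21. Python 3.11.15, pandas 2.3.3 and matplotlib 3.10.9 were used.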

Additional observations from a re-analysis of the deposited data

How the results depend on the processing

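Of the 6 members that rose over both genotypes, Dusp2, Dusp4, Dusp5 and Dusp8 kept their call in every alternative run and Dusp14 in all but 1 (both hearts high in atrial markers left out), and leaving out single libraries gave 5 to 6. Calls within 1 genotype were less stable. Without the filter, 0 of the members passed in C57BL/6J and 0 in Slit2-Tg hearts, and 7 and 19 of all genes in place of 70 and 80, with 299 in place of 532 over both genotypes, 11 in place of 6 for Slit2-non-IR against C57-non-IR and 4 in place of 0 for the interaction. With the replicate block, the counts were 4 members and 174 genes in C57BL/6J hearts (where the correlations of pairs were 0.0833 to 0.295), 4 members and 202 genes in Slit2-Tg hearts and 2 for Slit2-non-IR against C57-non-IR, and the other counts stayed within 1.5 times (773 in place of 532 over both genotypes, 9 in place of 7 for Slit2-IR against C57-IR). In fits of 2 groups alone, 0 members passed in either genotype, and 9 genes in C57BL/6J hearts and 4 in place of 7 for Slit2-IR against C57-IR. limma-voom gave 0 members and 32 genes in C57BL/6J hearts and 121 genes in Slit2-Tg hearts, and a pseudocount of 0.1 gave 10 genes for Slit2-non-IR against C57-non-IR. Without both hearts high in atrial markers (chosen after seeing the data), 0 members and 9 genes passed in C57BL/6J hearts, 49 genes in Slit2-Tg hearts, 237 over both genotypes, 1 for Slit2-non-IR against C57-non-IR and 0 for Slit2-IR against C57-IR. That fit has fewer samples, and the cause of the other shifts was not tested. Leaving out single libraries gave 0 to 4 members within each genotype, 3 to 254 genes in C57BL/6J, 4 to 180 in Slit2-Tg and 329 to 713 over both, 1 to 14 for Slit2-non-IR against C57-non-IR, 4 to 12 for Slit2-IR against C57-IR and 0 to 1 for the interaction. The single-gene difference of Dusp7 ranged from -0.44 to -0.29 (exact permutation p = 0.06 without Slit2-non-IR replicate 1) and that of Dusp16 from 0.14 to 0.23 (exact permutation p = 0.065 and 0.07 without C57-non-IR replicate 1 or 3). No direction reversed among called values, and TMM scaling moved the median gene by under 0.01. Depth limits Dusp14 and Dusp2 most, with as few as 7 and 10 reads.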

Other observations

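Several pathway genes lay just outside the threshold and were picked after their values were seen. The AP-1 subunit genes Fosb and Fos had log2 differences of 1.16 ± 0.29 and 0.99 ± 0.27 between IR and non-IR hearts over both genotypes (limma adjusted p = 0.0530 and 0.0754), and the zinc finger factor Egr3 one of 1.16 ± 0.29 (0.0570). Fos ranged from 132 to 359 FPKM in non-IR and 342 to 689 in IR hearts. The feedback inhibitor Spry4 differed by 0.66 ± 0.17 (0.0554) and Map3k14, the kinase of the alternative NF-kappaB pathway, by 0.37 ± 0.09 (0.0517). Dusp18, an atypical phosphatase outside the 10 genes described, had the lowest difference of the 13 other dual-specificity phosphatases, -0.41 ± 0.11 (0.0754), with 9.68 to 15 FPKM in non-IR and 7.43 to 11.4 in IR hearts, and Dusp27, a muscle pseudophosphatase, the highest, 0.74 ± 0.26 (0.176).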
